A study of Homo sapiens with 4 samples.

Results

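The postsynaptic scaffold genes described here are the SHANK genes (SHANK1, SHANK2, SHANK3), the DLG genes (DLG1, DLG2, DLG3, DLG4) and the HOMER genes (HOMER1, HOMER2, HOMER3). They were taken by the gene symbol of the platform annotation, with every probe set listed for each symbol. All 10 genes were represented, by 31 of the 54613 probe sets tested, out of 19775 genes in all. The study silenced TSPAN8, a tetraspanin of the cell surface, in SH-SY5Y cells and measured total RNA on Affymetrix oligonucleotide arrays. SH-SY5Y is a human neuroblastoma line, subcloned from the line SK-N-SH and grown here in medium with serum. The TSPAN8 knockdown cells (2 arrays) received small interfering RNA by the Accell delivery system, and the transfection control cells (2 arrays) are labelled only as control. Both groups were incubated for 72 h. The sources used here do not give the sequence of the small interfering RNA or what the control cells received. Nothing in the labels states that the 2 samples of a group were separate cultures, so the p-values reflect sample-to-sample spread alone, and that spread may be technical.

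The postsynaptic density is the protein layer under the membrane of excitatory synapses that holds receptors in place and links them to enzymes and to actin. DLG proteins lie nearest the membrane and bind the tails of receptors and channels through PDZ domains. SHANK proteins lie deeper and are tied to the DLG layer by DLGAP linkers, and HOMER proteins cross-link SHANK to metabotropic glutamate receptors and to calcium channels of the endoplasmic reticulum. DLG1 and the HOMER proteins also work outside synapses, in cell polarity and calcium signalling. A neuroblastoma culture is not a preparation of synapses, and the arrays report RNA of these genes, not assembled scaffolds.

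TSPAN8 fell on its 1 probe set. The values (log2 signal throughout, as deposited) were 6.25 and 6.35 in TSPAN8 knockdown cells, against 7.52 and 7.62 in transfection control cells. The difference was -1.27 ± 0.062 (SE), knockdown minus control, and it was the only probe set of the array past an adjusted p of 0.05 (limma, adjusted p = 0.0026). Across the probe sets of the array (not independent replicates) Pearson's r was 0.998 between the 2 knockdown arrays, 0.998 between the 2 control arrays and at least 0.997 between groups. Of the markers of noradrenergic neuroblastoma with a probe set here, 5 of 6 stood above the array median on all 4 arrays, and TH stood below it on all 4. Above it on all 4 arrays were also 5 of 7 mesenchymal or fibroblast, 2 of 3 Schwann cell and 3 of 4 astrocyte markers. The same was so for 1 of 4 mature excitatory neuron markers and for 26001 of all 54613 probe sets. Mesenchymal or fibroblast markers were above control in 6 of 7 genes, against 8787 of all 19775 genes. They had a median difference of 0.22. Their mean log2 level over the 7 genes was 8.79 and 8.48 on the knockdown arrays against 8.45 and 8.35 on the control arrays. None of the 7 passed (limma, adjusted p of 0.05), and the part of that difference in the values below was not tested. The largest differences of that list were 0.50 for DCN (unadjusted p = 0.060 by limma) and 0.44 for COL3A1 (unadjusted p = 0.0068 and adjusted p = 0.60 by limma). PRRX1 of the same list stood below the array median on every array. The noradrenergic list was below control in 5 of 6 genes, against 55.6% of all genes, with a median difference of -0.045. This list had a mean log2 level over the 6 genes of 10.36 and 10.41 on the knockdown arrays against 10.47 and 10.44 on the control arrays. None of the 6 passed in limma, its part in the values below was not tested either, and DBH, which makes noradrenaline from dopamine, was at -0.35 (unadjusted p = 0.011 and adjusted p = 0.60 by limma). The remaining marker lists had median differences of 0.0049 for Schwann cells (3 measured), -0.021 for mature excitatory neurons (4 measured) and 0.037 for astrocytes (4 measured). Above control were 2 of 3 Schwann cell, 1 of 4 neuron and 4 of 4 astrocyte markers. Of the 4 neuron markers, the vesicular glutamate transporter gene SLC17A7 was the one above the array median on all 4 arrays.

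None of the 31 scaffold probe sets passed (limma, adjusted p of 0.05; 0.00183% of all probe sets passed). The smallest adjusted p was 0.60. HOMER1 and HOMER2 had the largest differences below control, and 1 probe set each of DLG1 and DLG2 the largest above it. At an unadjusted p under 0.05 there were 4 of the 31 (12.9%), 2 above and 2 below control, where 7.83% of all probe sets reached it, 3.72% above and 4.12% below. The groups' arrays did not overlap in 13 of the 31 (41.9%), against 37.5% of all probe sets. In 4 of the 13 both knockdown arrays were above control (17.7% of all probe sets) and in 9 both were below (19.8%). The median difference of the 31 was -0.021, against a median of 0 over the whole array. The 31 differences had a median size of 0.055. The 2 knockdown arrays differed from each other by a median of 0.067 over the same probe sets and the 2 control arrays by 0.051. A difference between groups was larger than both differences within groups in 8 of the 31 (25.8%), against 25.6% of all probe sets. In RNA from a whole culture, fewer cells that carry a transcript and less of it per cell cannot be told apart.

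**Figure D1:**
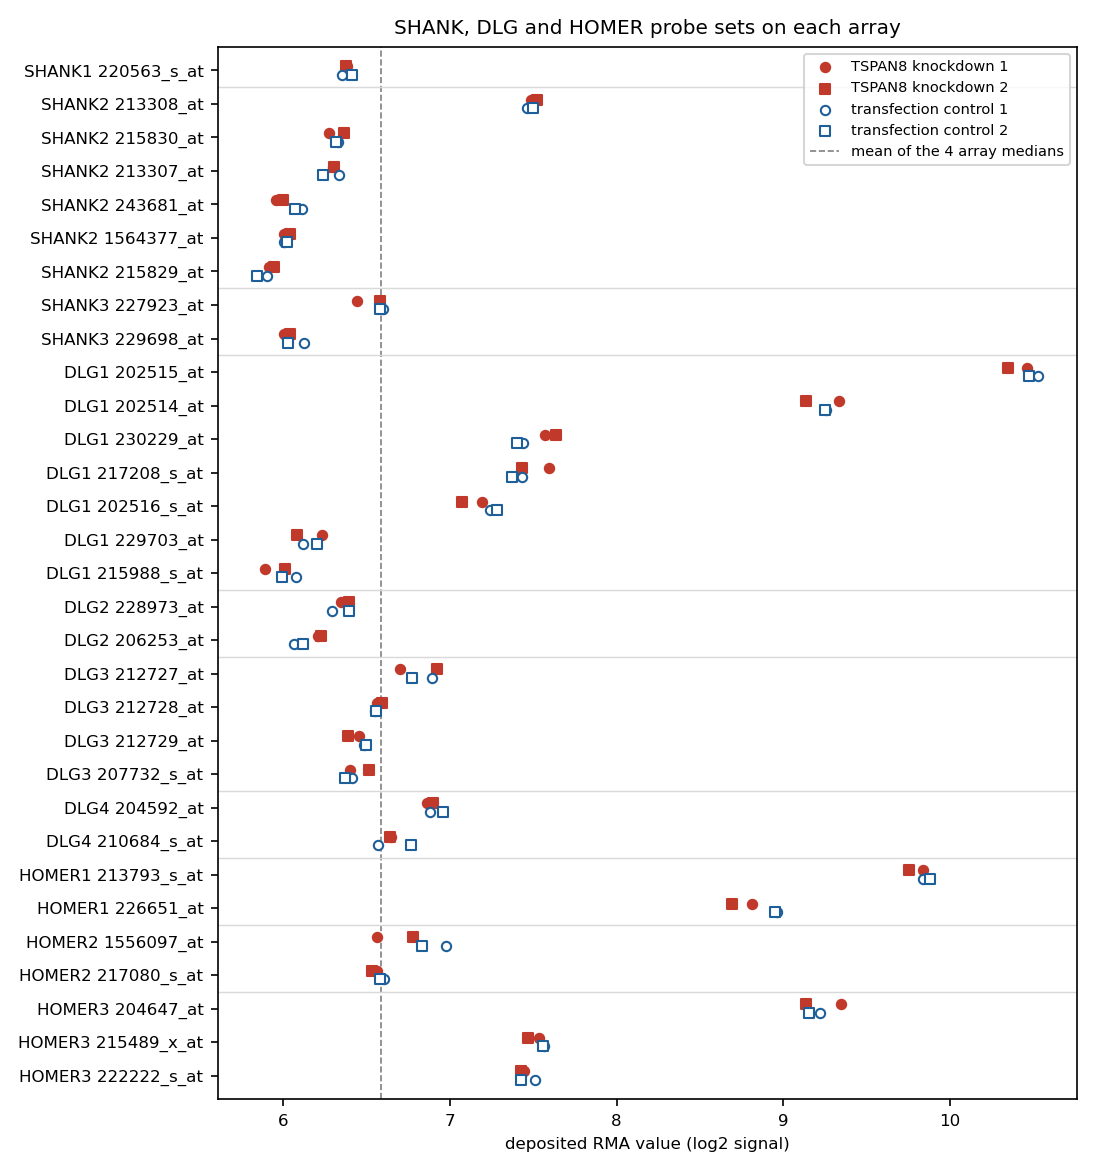
Deposited log2 signal (horizontal axis) of each of the 31 probe sets (rows) on the 2 TSPAN8 knockdown arrays (filled red) and the 2 transfection control arrays (open blue); the dashed line is the mean of the 4 array medians. The groups lie close together in every row, and 14 of the 31 probe sets stay below the array median on all 4 arrays.

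The 95% confidence intervals bound what these arrays leave possible. Every one of the 31 intervals lay between -0.42 and 0.31, and their median half-width was 0.13. All 31 therefore exclude a log2 change of 0.5, a fold of 1.41, in signal. The same held for 54348 of the 54613 probe sets of the array, where the median half-width was also 0.13. It is therefore not a trait of the scaffold genes. For probe sets near background this holds for the signal alone, because summarised log2 values compress the change of a transcript near background. On all 4 arrays, 13 probe sets stood above the array median and 14 below it (called dim here), and 4 stood on both sides. SHANK genes were mostly in the dim part (7 of 9 below on all arrays), whereas HOMER genes had none there (5 of 7 above on all arrays). Brightness depends on the probes as well as on the transcript, so levels are not ranked between genes here.

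**Figure D2:**
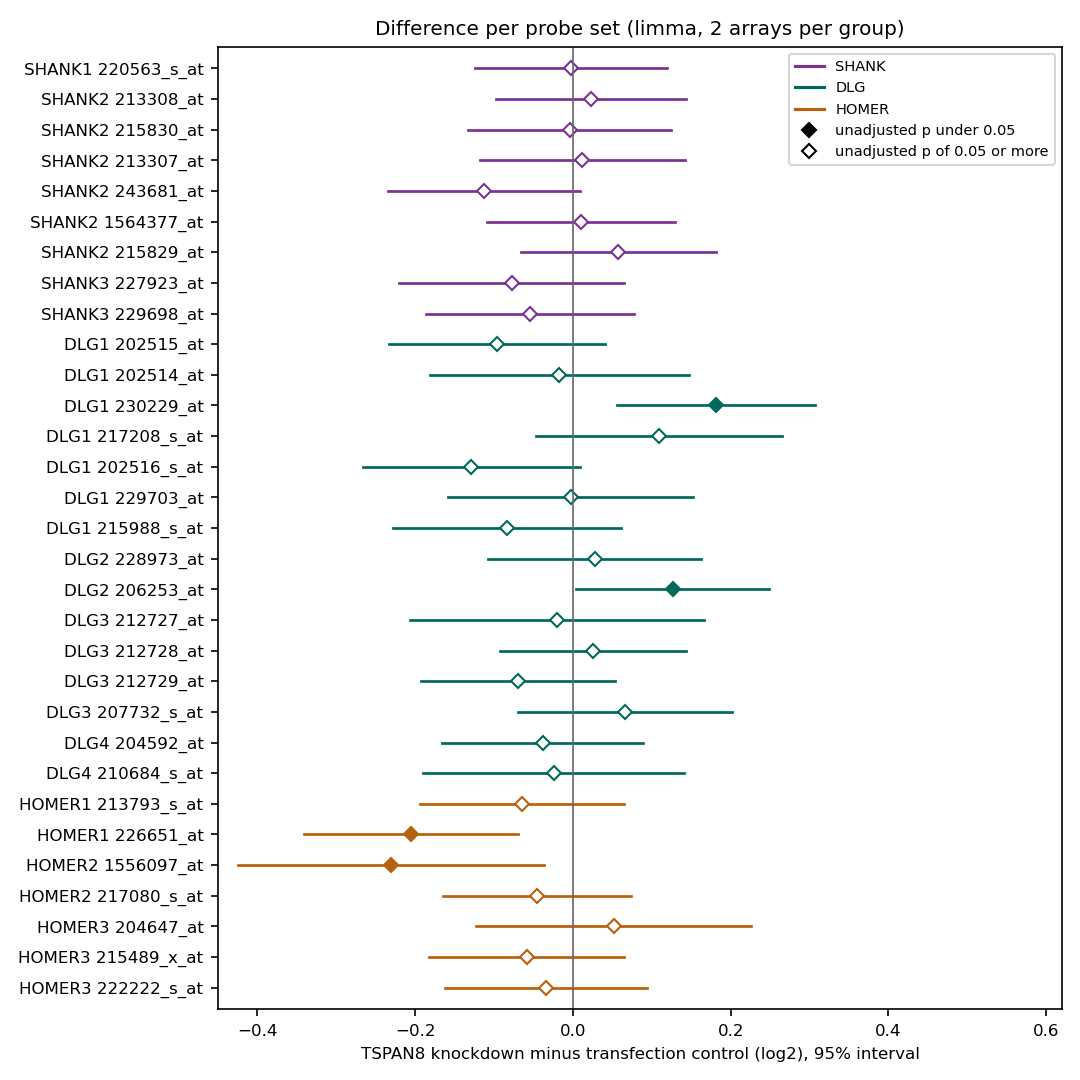
Log2 difference, TSPAN8 knockdown minus transfection control (horizontal axis), of each probe set with its 95% interval from limma (2 arrays per group); filled diamonds mark an unadjusted p under 0.05 and colours mark the 3 families. The 4 filled diamonds are DLG1 230229_at and DLG2 206253_at, above 0, and HOMER1 226651_at and HOMER2 1556097_at, below 0.

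SHANK proteins are large scaffolds with ankyrin repeats, a PDZ domain that binds the DLGAP linkers, proline-rich stretches that bind HOMER and cortactin, and a SAM domain by which they form sheets. SHANK1, the member most restricted to brain, has 1 probe set, 220563_s_at, with values of 6.38 and 6.38 in TSPAN8 knockdown cells, against 6.35 and 6.41 in transfection control cells. The knockdown values lay between the control values, and the difference was -0.0025 ± 0.053 (SE).

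SHANK2, which neurons and some epithelia express, has 6 probe sets, 4 above control and 2 below it. Only 213308_at was above the array median, at 7.49 and 7.52 in TSPAN8 knockdown cells, against 7.46 and 7.50 in transfection control cells. The groups overlapped there and differed by 0.023 (95% interval -0.098 to 0.14). The lowest difference of the gene was at 243681_at, a dim probe set with 5.96 and 6.00 in TSPAN8 knockdown cells, against 6.11 and 6.07 in transfection control cells. Both knockdown arrays were below both control arrays, with a difference of -0.11 ± 0.053 (SE; limma, adjusted p = 0.65). The other 4 SHANK2 probe sets differed by -0.0042 to 0.057. At 215829_at, the highest of them, both knockdown arrays (5.92 and 5.95) stood above the control arrays (5.90 and 5.84) with a difference of 0.057.

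SHANK3, whose loss causes Phelan-McDermid syndrome in humans, has 2 probe sets, both below control. The values at 227923_at were 6.44 and 6.58 in TSPAN8 knockdown cells, against 6.60 and 6.58 in transfection control cells. Knockdown replicate 2 was level with the control arrays there, so that the difference of -0.078 ± 0.061 (SE) came to -0.0092 without knockdown replicate 1. At 229698_at the difference was -0.055, with 6.01 and 6.04 in knockdown cells against 6.12 and 6.03 in control cells. The groups overlapped at both probe sets.

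DLG proteins are membrane-associated guanylate kinases, with PDZ domains, an SH3 domain and a guanylate kinase-like domain that binds DLGAP linkers. DLG1 (SAP97), the member also found at epithelial junctions, is the only one with probe sets far above the array median. Its 7 probe sets did not share a direction, with 2 above control and 5 below. The brightest, 202515_at, had values of 10.46 and 10.35 in TSPAN8 knockdown cells, against 10.53 and 10.48 in transfection control cells. Both knockdown arrays were the lower ones, and the difference was -0.097 ± 0.059 (SE). It was -0.15 without knockdown replicate 1 and -0.042 without knockdown replicate 2. At 202516_s_at the values were 7.19 and 7.07 in TSPAN8 knockdown cells, against 7.24 and 7.28 in transfection control cells. The groups did not overlap there either, with a difference of -0.13 (95% interval -0.27 to 0.0083). That difference was -0.19 without knockdown replicate 1 and -0.070 without knockdown replicate 2. The knockdown arrays lay on either side of the control arrays at 202514_at, with 9.34 and 9.14 in knockdown cells against 9.25 and 9.25 in control cells, a difference of -0.017.

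DLG1 stood above control at 230229_at and 217208_s_at. The values at 230229_at were 7.57 and 7.64 in TSPAN8 knockdown cells, against 7.44 and 7.40 in transfection control cells. Both knockdown arrays were higher, by more than either pair differed within its group, with a difference of 0.18 ± 0.054 (SE; unadjusted p = 0.010 and adjusted p = 0.60 by limma). At 217208_s_at the values were 7.60 and 7.43 in TSPAN8 knockdown cells, against 7.43 and 7.37 in transfection control cells. Knockdown replicate 2 overlapped the control arrays there. The difference of 0.11 came to 0.026 without knockdown replicate 1 and to 0.19 without knockdown replicate 2. The 2 dim probe sets of DLG1 differed by -0.0030 (229703_at) and -0.084 (215988_s_at), with overlapping groups.

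**Figure D3:**
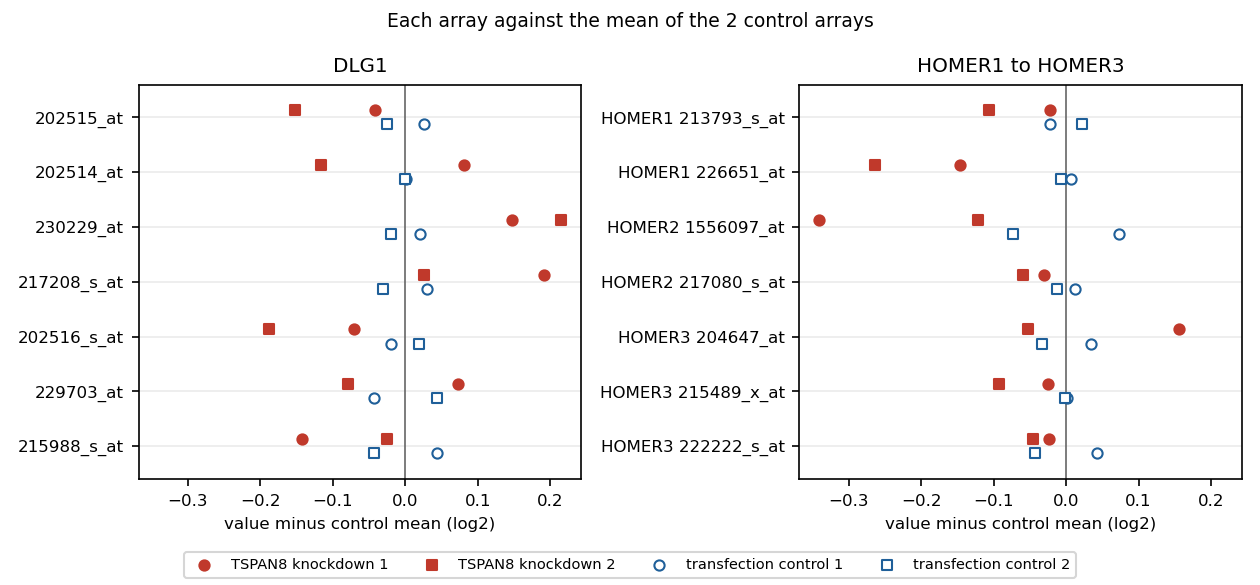
Value of each array minus the mean of the 2 transfection control arrays (log2, horizontal axis) for the 7 DLG1 probe sets (left) and the 7 HOMER probe sets (right); filled red is TSPAN8 knockdown and open blue is transfection control. DLG1 probe sets lie on both sides of 0, while 6 of 7 HOMER probe sets have a knockdown mean below 0.

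Whether the probe sets of a gene disagree was tested with diffSplice of limma, which sets each probe set against the others of its gene. This test was added after the values had been seen, and it treats the probe sets of a gene as independent. DLG1 had the smallest unadjusted p of the 9 genes with several probe sets, at 0.041, which did not pass over the 10523 genes tested (adjusted p = 0.61 by limma). Over those genes 7.91% were under 0.05 unadjusted and 5 passed. The change at 230229_at exceeded the mean of the other DLG1 probe sets by 0.22 (limma, adjusted p = 0.47 over 31839 probe sets). The other 8 genes had adjusted p-values from 0.71 to 1.00. The annotation used here does not say which DLG1 transcripts each probe set reads.

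DLG2 (PSD93), a neuronal member, has 2 probe sets, both dim and both above control. At 206253_at the values were 6.21 and 6.23 in TSPAN8 knockdown cells, against 6.06 and 6.12 in transfection control cells. The groups did not overlap, and the difference was 0.13 ± 0.053 (SE; unadjusted p = 0.045 and adjusted p = 0.63 by limma). On each of the 4 arrays, between 37 and 71 other probe sets held exactly the value that 206253_at held, which was so on all 4 arrays for 20 probe sets of the whole array (10 or more others sharing the value). At 228973_at the values were 6.34 and 6.39 in TSPAN8 knockdown cells, against 6.29 and 6.39 in transfection control cells, with a difference of 0.027.

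DLG3 (SAP102), which carries NMDA receptors in young neurons, has 4 probe sets, 2 above control and 2 below, with differences of -0.070 to 0.065. The brightest, 212727_at, had values of 6.70 and 6.92 in TSPAN8 knockdown cells, against 6.89 and 6.77 in transfection control cells. The 2 knockdown arrays were the lowest and the highest of the 4, and the difference was -0.021 ± 0.081 (SE). At 212729_at both knockdown arrays were lower, with 6.45 and 6.39 in knockdown cells against 6.48 and 6.49 in control cells. At 207732_s_at the groups overlapped, with 6.40 and 6.51 in knockdown cells against 6.41 and 6.37 in control cells. The fourth, 212728_at, differed by 0.026. Both knockdown arrays (6.564 and 6.595) were above both control arrays (6.550 and 6.558) there, by a narrow margin.

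DLG4 (PSD95), the most abundant DLG protein of mature excitatory synapses, has 2 probe sets near the array median. At 204592_at the values were 6.86 and 6.90 in TSPAN8 knockdown cells, against 6.88 and 6.96 in transfection control cells. The difference was -0.038 (95% interval -0.17 to 0.089), with overlapping groups. At 210684_s_at the knockdown values, 6.65 and 6.64, lay between the control values of 6.57 and 6.77, with a difference of -0.024.

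HOMER proteins bind proline-rich ligands through an EVH1 domain, and their long forms join through a coiled coil, which lets them cross-link these ligands. A short HOMER1 form without the coiled coil is induced by activity and uncouples the long forms. HOMER1 has 2 probe sets, both well above the array median and both below control. At 226651_at the values were 8.81 and 8.69 in TSPAN8 knockdown cells, against 8.97 and 8.95 in transfection control cells. Both knockdown arrays were lower than both control arrays, by more than either pair differed within its group. The difference was -0.21 ± 0.059 (SE; unadjusted p = 0.0085 and adjusted p = 0.60 by limma), 86.7% of the control signal, and it placed 756th of 54613 by p. At 213793_s_at the values were 9.84 and 9.75 in TSPAN8 knockdown cells, against 9.84 and 9.88 in transfection control cells. Knockdown replicate 1 was level with control replicate 1 to 2 decimals there, and the difference was -0.065 (95% interval -0.19 to 0.065). The 2 probe sets did not differ from each other past the threshold (diffSplice of limma, adjusted p = 0.76), and the annotation used here does not say whether either reads the short form.

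HOMER2, found in brain and in other tissues, has 2 probe sets near the array median, both below control. At 1556097_at the values were 6.56 and 6.78 in TSPAN8 knockdown cells, against 6.97 and 6.83 in transfection control cells. The groups did not overlap, but the 2 knockdown arrays differed by 0.22, nearly as much as the groups, whose difference was -0.23 ± 0.084 (SE; unadjusted p = 0.025 and adjusted p = 0.61 by limma). Knockdown replicate 1, the lowest array, held a value shared exactly with 24 other probe sets. Without knockdown replicate 1 the difference was -0.12. Without knockdown replicate 2 it was -0.34 with an adjusted p of 0.016 (limma), the only scaffold probe set to pass with any array left out, in a fit in which 1026 of 54613 probe sets passed and the lone knockdown array was assumed to vary like the control group. At 217080_s_at the values were 6.56 and 6.53 in TSPAN8 knockdown cells, against 6.60 and 6.58 in transfection control cells, without overlap and with a difference of -0.045. Averaged over the 2 probe sets of each gene, HOMER1 differed by -0.13 and HOMER2 by -0.14, with unadjusted p-values of 0.026 and 0.032 and adjusted p-values of 0.61 and 0.62 over all genes (limma).

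HOMER3, which brain and several other tissues express, has 3 probe sets, 1 above control and 2 below. The brightest, 204647_at, had values of 9.35 and 9.14 in TSPAN8 knockdown cells, against 9.22 and 9.16 in transfection control cells. The knockdown arrays were the highest and the lowest of the 4, and the difference was 0.052 ± 0.075 (SE). At 215489_x_at both knockdown arrays were lower, with 7.54 and 7.47 in knockdown cells against 7.56 and 7.56 in control cells, a difference of -0.059. At 222222_s_at the difference was -0.035, with overlapping groups.

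Taken by family, HOMER probe sets were below control in 6 of 7, SHANK probe sets in 5 of 9 and DLG probe sets in 9 of 15, against 50% of all probe sets. Brighter probe sets leaned that way over the whole array: of those with a mean above the median, 56.7% were below control. Of the 6 HOMER probe sets in that range 5 were below control, and in 4 of the 6 both knockdown arrays were below both control arrays, against 26% of all probe sets in it. The median HOMER difference was -0.059. Relative to the control mean, the HOMER median was -0.025 in knockdown replicate 1, -0.092 in knockdown replicate 2, and 0.013 and -0.013 in the control replicates. The probe sets of a gene share its RNA, so these 7 are values of 3 genes. The SHANK median was -0.0025 and the DLG median -0.017. Knockdown replicate 1 was above knockdown replicate 2 in 6 of 7 HOMER probe sets, in 7 of 15 DLG probe sets and in 1 of 9 SHANK probe sets, against 48.5% of all probe sets.

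**Figure D4:**
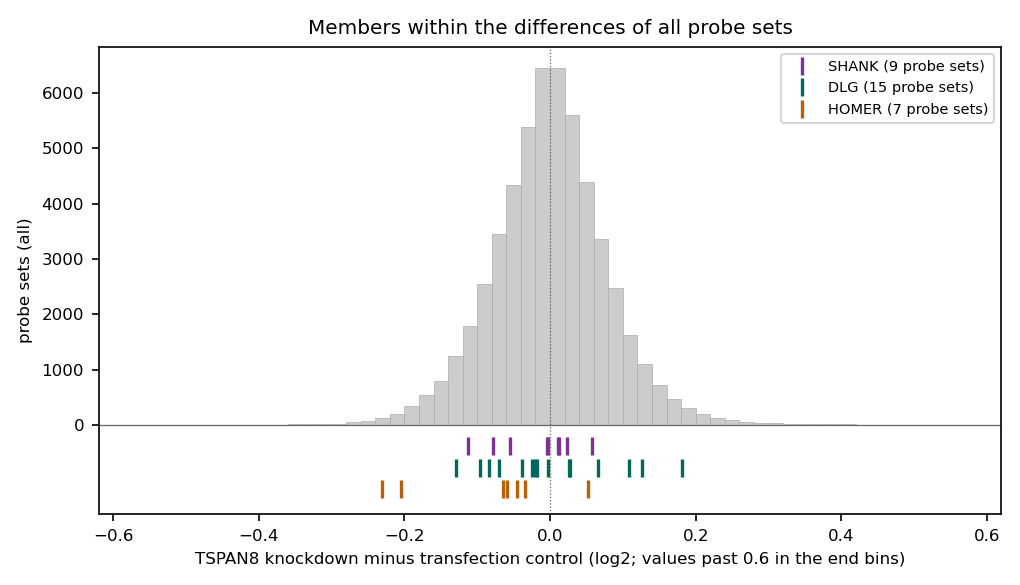
Number of probe sets (vertical axis) by log2 difference, TSPAN8 knockdown minus transfection control (horizontal axis), for all 54613 probe sets, with each SHANK, DLG and HOMER probe set as a tick under the histogram. The 31 ticks run from -0.23 to 0.18, within the range of the whole array. The 2 lowest are HOMER ticks at the lower flank of the histogram, and the highest, DLG1 230229_at, lies at its upper flank.

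The genes that work with these scaffolds were described by 6 lists, each gene by its brightest probe set. Of 120 listed genes, 107 had a probe set of their own here. None passed (limma, adjusted p of 0.05; 0.00506% of genes passed). At an unadjusted p under 0.05 there were 13 of the 107 (12.1%), 6 above and 7 below control, where 7.96% of all genes reached it, 2.39% above and 5.57% below. Their median difference was -0.0091, against -0.0094 over all genes.

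The linkers that join the DLG and SHANK layers or bind their domains had 10 of 17 genes above control and 41.2% below it, against 55.6% of all genes. Their median was 0.0076, and 1 gene (5.88%, against 7.96% of all genes) was at an unadjusted p under 0.05. That gene was SHARPIN, a SHANK-binding protein that is also a subunit of the linear ubiquitin ligase. It stood at 8.12 and 8.17 in TSPAN8 knockdown cells, against 8.05 and 7.98 in transfection control cells, a difference of 0.13 without overlap. On their brightest probe sets the DLGAP linkers differed by 0.034 for DLGAP4, -0.022 for DLGAP3 and 0.0076 for DLGAP2. The 6 probe sets of DLGAP4 ran from -0.099 to 0.094, and the 2 of DLGAP2 from -0.056 to 0.0076. DLGAP1 had no probe set of its own here. CTTN, which encodes the actin-binding protein cortactin, was at -0.092 on its brightest probe set, while its 4 other probe sets were above control by up to 0.44. DYNLL2, a dynein light chain that binds DLGAP linkers, was at -0.091, with 1 of its 3 probe sets above control.

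Membrane partners of DLG PDZ domains were below control in 13 of 23 genes (56.5%, against 55.6% of all genes), with a median of -0.023. At an unadjusted p under 0.05 there were 3 (13%, against 7.96% of all genes), 1 above and 2 below. LRRTM2, a leucine-rich synaptic adhesion protein, was at 6.72 and 6.72 in TSPAN8 knockdown cells, against 7.09 and 6.88 in transfection control cells, a difference of -0.27 ± 0.073 (SE; limma, adjusted p = 0.60) on its 1 probe set. ADAM22, the receptor of the secreted protein LGI1, was at -0.15 on its brightest probe set, and its 7 other probe sets were above control. GRIN2A, an NMDA receptor subunit, was at 0.14 with values below the array median on every array. The other NMDA receptor subunits differed by 0.10 (GRIN1), 0.0083 (GRIN2B), 0.14 (GRIN2C) and -0.029 (GRIN2D). Probe sets disagreed in direction for GRIN2A and GRIN2B, each with 1 of 3 below control, and for GRIN2C, with 2 of 3 below. GRIN1 had 0 of 5 below control and GRIN2D 2 of 2.

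Ligands of the HOMER EVH1 domain had 7 of 12 genes above control and 41.7% below it, against 55.6% of all genes. Their median was 0.011. In limma 0 genes were at an unadjusted p under 0.05, against 7.96% of all genes, and likewise none passed the adjusted threshold. AGAP2, a GTPase that couples metabotropic receptors to phosphoinositide signalling, was at -0.12, the inositol trisphosphate receptor gene ITPR1 at -0.11 and the transcription factor gene NFATC2 at -0.086. Probe sets disagreed in direction for AGAP2, with 2 of 3 above control, and for ITPR1, with 1 of 5 above. Of the 4 probe sets of NFATC2, 3 were below control and the other was level with it. GRM5, the metabotropic glutamate receptor that HOMER binds, was at 0.018.

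Postsynaptic enzymes and signalling proteins were below control in 11 of 20 genes (55%, against 55.6% of all genes), with a median of -0.053. At an unadjusted p under 0.05 there were 3 genes (15%), all below control, where 7.96% of all genes reached it and 5.57% did so below control. SIPA1L1, a GTPase-activating protein of Rap that binds DLG4, had the smallest p of the 107. It stood at 8.96 and 9.03 in TSPAN8 knockdown cells, against 9.24 and 9.23 in transfection control cells, and both knockdown arrays were lower by more than the spread within either group. The difference was -0.24 ± 0.054 (SE; limma, adjusted p = 0.58), and 1 of its 3 probe sets was above control, at 0.041. With 1 array left out, the SIPA1L1 difference ranged from -0.27 to -0.20. Over all alternative settings, among them 1 value per gene from all its probe sets, it ranged from -0.27 to -0.10. ARHGEF7, a Rac and Cdc42 exchange factor that binds SHANK, was at -0.16, but 6 of its 9 probe sets were above control. IQSEC1, an Arf exchange factor, was at -0.14 and at 0.0079 on its second probe set.

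Other PDZ scaffolds had 7 of 13 genes below control (53.8%, against 55.6% of all genes) and a median of -0.0091. At an unadjusted p under 0.05 there were 3 genes (23.1%), all above control, where 7.96% of all genes reached it and 2.39% did so above control. PDZRN3, a PDZ-domain ubiquitin ligase, stood at 9.28 and 9.21 in TSPAN8 knockdown cells, against 8.99 and 9.06 in transfection control cells. The groups did not overlap, with a difference of 0.22 ± 0.056 (SE; limma, adjusted p = 0.60), and 1 of its 3 probe sets was below control. Over all alternative settings the PDZRN3 difference ranged from 0.015 to 0.26. GRIP1, an AMPA receptor scaffold, was at 0.18 with values below the array median on every array. PDLIM5, a PDZ and LIM protein that binds protein kinase C, was at 0.15, with 9 of its 10 probe sets above control.

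Regulators of scaffold palmitoylation, synthesis and turnover were below control in 15 of 22 genes (68.2%), against 55.6% of all genes, with a median of -0.035. ABHD17A, a depalmitoylating enzyme of DLG4, was at -0.17 on its 1 probe set, with 9.26 and 9.22 in TSPAN8 knockdown cells, against 9.44 and 9.38 in transfection control cells. CYFIP2, a subunit of the actin-regulating WAVE complex, was at -0.15, and both of its probe sets were below control. PLK2, a kinase that drives loss of the DLG4 partner SIPA1L1 in rat neurons, had the largest difference of the lists. It stood at 8.47 and 8.04 in TSPAN8 knockdown cells, against 7.97 and 7.88 in transfection control cells, a difference of 0.33 ± 0.12 (SE; limma, adjusted p = 0.61). The 2 knockdown arrays differed by more than the groups. Without knockdown replicate 1 the difference was 0.12, and without knockdown replicate 2 it was 0.55.

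**Figure D5:**
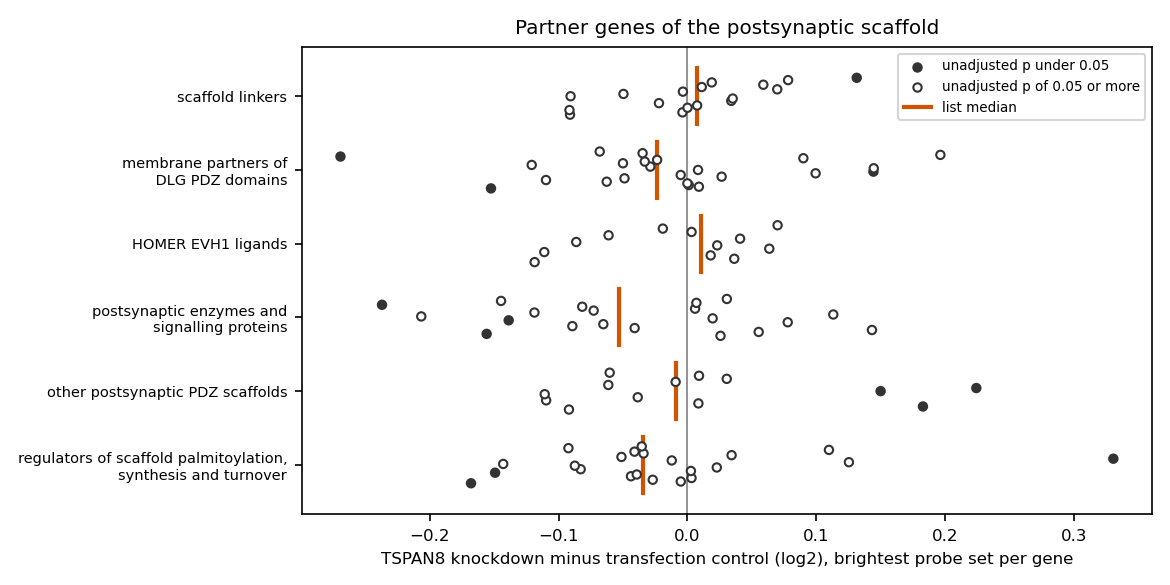
Log2 difference, TSPAN8 knockdown minus transfection control (horizontal axis), of the 107 partner genes in their 6 lists (rows), 1 point per gene by its brightest probe set; filled points have an unadjusted p under 0.05 and bars are list medians. List medians lie between -0.053 and 0.011, and filled points lie on both sides of 0.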

How the data were processed

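Total RNA of 4 SH-SY5Y samples was hybridised to 1 array each. The authors deposited log2 values made with RMA in R 3.0.1, per the submitters' processing notes, without settings. Values ran from 5.30 to 14.6 with array medians of 6.58 to 6.61. Scanner files and detection calls were not used here, and the number of arrays limits the precision. Of 54675 probe sets, 62 AFFX controls were left out. Symbols came from the platform annotation (41091 probe sets with 1 gene, 1801 with several and 11721 not listed), and 41037 matched a RefSeq gene. Knockdown was compared with control on all 4 arrays by limma 3.58.1 (lmFit and eBayes, R 4.3.3), two-sided, with Benjamini-Hochberg adjustment over 54613 probe sets. SD rests on n = 2 per group. SE, confidence intervals and p-values of this fit are the moderated ones of eBayes, with 7.80 degrees of freedom for a probe set. Of these, 2 came from its own 4 arrays and 5.80 from a prior variance estimated over all probe sets (prior SD 0.059). A printed SE or interval is therefore not the spread of that probe set alone. A partner gene was represented by its brightest probe set over the 4 arrays, and the 3 with the smallest p in each list are named. Also named are SLC17A7, TH, PRRX1, COL3A1, DCN, DBH, the DLGAP linkers, the other NMDA receptor subunits and GRM5. These were chosen after their values were seen or for their role. The script was tested on simulated data. The members, lists and alternatives were chosen with earlier results of these data known. Sequences are not printed because no probe or protein sequence was in the material used here. Figures were drawn with Python 3.11.15 and matplotlib 3.10.9.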

Additional observations from a re-analysis of the deposited data

How the results depend on the processing

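With 2 arrays per group and many scaffold probe sets near the array median, the 95% intervals had a median half-width of about 0.13. They are not adjusted for the number of probe sets. Larger differences, such as -0.23 at HOMER2 1556097_at, did not pass the adjusted threshold either. Of the alternatives outside leave-one-out, none brought a scaffold probe set past the threshold. After a second quantile normalization and with arrays centred, 4 scaffold probe sets were again at an unadjusted p under 0.05, but DLG2 206253_at was no longer among them and SHANK2 243681_at was. With the replicate number as a block, 0 probe sets passed, TSPAN8 was at -1.27 with an adjusted p of 0.16, and 2 scaffold probe sets (DLG1 230229_at and HOMER1 226651_at) were at an unadjusted p under 0.05 instead of 4, in a fit with 1 residual degree of freedom. The samples share only a number: deviations from the group means of same-numbered arrays had a correlation of 0.051, over 2 pairs that no label ties together.

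With 1 array left out, a group of 1 array borrows its spread from the other group, and the cause of the shifts was not tested. Between 1 and 1026 probe sets passed the threshold (25 when knockdown replicate 1 was left out and 1026 when knockdown replicate 2 was), between 0 and 1 scaffold probe sets passed, between 2 (without either control array) and 4 were at an unadjusted p under 0.05, and between 0 and 5 partner genes passed (5 without knockdown replicate 2). Without knockdown replicate 1 the 4 were DLG1 230229_at, 202515_at and 202516_s_at and HOMER1 226651_at, without DLG2 206253_at and HOMER2 1556097_at. TSPAN8 ranged from -1.32 to -1.22.

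HOMER1 226651_at (-0.26 to -0.15 with 1 array left out), HOMER2 1556097_at, DLG1 230229_at (0.15 to 0.22) and DLG2 206253_at (0.097 to 0.16) kept their sign in the settings that fitted them as single probe sets (DLG2 206253_at was not in the filter on signal). Signs turned elsewhere. After a second quantile normalization SHANK2 1564377_at was at -0.00060, SHANK2 213307_at at -0.0020 and DLG1 202514_at at 0.013. With arrays centred on their medians the SHANK2 pair was at -0.0034 and -0.0017. With the mean over a gene's probe sets, SHANK2 was at -0.0024, DLG3 at 0.00015, HOMER3 at -0.014, CTTN at 0.14, ADAM22 at 0.027 and ARHGEF7 at 0.0049. The median over a gene's probe sets is the middle level on each array and can come from different probe sets: for DLG1 it was 230229_at on knockdown replicate 1 and 217208_s_at on the other 3 arrays, and the median of the 7 differences was -0.017. By that median, SHANK2 was at -0.033, DLG1 at 0.095, DLG3 at 0.0088, HOMER3 at -0.059, CTTN at 0.27, DYNLL2 at 0.042, ADAM22 at 0.034, GRIN2A at -0.0021, AGAP2 at 0.027 and ARHGEF7 at 0.054.

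Leaving out 1 array turned the sign at 12 scaffold probe sets: SHANK1 220563_s_at (-0.032 to 0.027), SHANK2 1564377_at (-0.0062 to 0.027), 213307_at (-0.036 to 0.060) and 215830_at (-0.049 to 0.041), DLG1 202514_at (-0.12 to 0.082) and 229703_at (-0.079 to 0.073), DLG2 228973_at (-0.024 to 0.079), DLG3 212727_at (-0.13 to 0.089), DLG4 204592_at (-0.078 to 0.0012) and 210684_s_at (-0.12 to 0.076), and HOMER3 204647_at (-0.053 to 0.16) and 222222_s_at (-0.078 to 0.0085).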

Other observations

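The deposited values hold many exact repeats between probe sets. On each array, between 4147 and 4328 probe sets (7.59% to 7.92%) had a value that at least 1 other probe set of that array held to the last deposited digit, with up to 78 others at the same value. Values shared by 10 or more others lay between 5.49 and 7.74. On at least 1 array, 8519 probe sets (15.6% of the array) held such a value, as did 5 of the 31 scaffold probe sets (16.1%): SHANK2 1564377_at, SHANK3 229698_at, both probe sets of DLG2 and HOMER2 1556097_at. SHANK2 1564377_at and SHANK3 229698_at, which belong to different genes, held the same value on both knockdown arrays and differed on the control arrays. Their shared value was held by 59 other probe sets besides each of them on knockdown replicate 1 and by 73 on knockdown replicate 2. How the repeats arose was not tested.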
